A study of Mus musculus with 111 samples.

Results

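TMN tissue from mice that expressed H3.3(Q5A) was compared with tissue from mice that received either of the control viruses at ZT8, that is, 8 h after lights on. The comparison was defined by the sample labels and took in 19 of the 111 RNA-seq libraries of the series, namely 6 Q5A, 6 GFP and 7 H3.3 libraries. The mice were C57BL/6J males and females, purchased at 8 to 10 weeks of age and kept on a 12 h light and 12 h dark cycle. Their age at surgery and at collection is not given, and their own H3.3 genes were intact in every group. An AAV injected into the TMN carried an empty vector with GFP, wild-type (WT) H3.3, or H3.3 with alanine in place of glutamine 5, and both histones carried Flag and HA tags. All 3 vectors also expressed GFP, which was used to dissect the transduced tissue from frozen sections 21 days after surgery, so every group had surgery, an AAV and a GFP-guided dissection. The study counts each library as 1 mouse, and the promoter of the vectors is not given in the sources used here. The libraries belonged to 3 cohorts, with 5 Q5A, 5 GFP and 4 H3.3 libraries in cohort 1, 1, 1 and 2 in cohort 2, and a single H3.3 library in cohort 3.

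Histone H3.3 is the form of H3 that is placed into chromatin outside of DNA replication, which makes it the main H3 supplied to neurons after they stop dividing. Glutamine 5 of its tail can be bonded to serotonin, dopamine or histamine by transglutaminase 2, next to lysine 4, whose methylation marks active promoters and is written by MLL and SETD1 complexes that contain WDR5. An alanine at that position cannot accept a monoamine. The TMN, in the posterior hypothalamus, holds the histamine neurons of the brain, which promote wakefulness and lie beside neurons that make melanin-concentrating hormone. Tissue collected at ZT8 comes from the later part of the light phase, when mice mostly rest.

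The libraries held 1434935 to 1750131 counts in gene rows in Q5A and 1203356 to 1902572 in controls, which did not differ beyond the spread between libraries (exact permutation test, 2-sided, p = 0.134, adjusted over 7 library measures 0.235). Gene rows took 3.78% to 4.30% of the uniquely placed reads. The reads had been counted by strand, and 49.7% to 54.1% of the gene reads lay in rows of genes that have an exon opposite another gene, so values are given as those of a row, and the opposite gene is named where there is one. The library kit marks the strand of the RNA, and kits of its kind commonly give first reads from the strand opposite to the transcript, whereas the counting setting took first reads on the strand of the gene. Whether the setting matched the kit was not tested, and if it did not, a row holds reads from the strand opposite to its gene and not the gene's own RNA, which would change what every row value means. Roles of genes are therefore given as background to the name of a row. Hdc, which encodes the histamine-forming enzyme and defines the TMN, had 0 to 21 reads (median 8), and H3f3a, Tgm2 and Wdr5 had at most 14, 11 and 12 reads, so these 4 rows did not pass the filter on low counts. H3f3b, the other H3.3 gene, had 7 to 41 reads and a log2 difference of 0.15 ± 0.23 (SE) between Q5A and the pooled controls (edgeR, adjusted p = 0.741). This contrast cannot show the transgene, because 7 of the 13 control libraries also received an H3.3 virus. The part of depth and of the strand setting in these low counts was not tested. The H3.3 library of cohort 3 stood apart, with scores of 71.9 and 59.1 on the first 2 principal components, which held 24.1% and 18.8% of the variance. Its summed level of 14 myelin and oligodendrocyte markers was 5313 CPM (counts scaled to 1000000 per library), against 1093 to 2187 in the other 12 controls, and that of 14 neuron markers was 11951 against 4019 to 6771. Counts without it are also given for each comparison and for most of the lists.

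No row passed an adjusted p of 0.01 for Q5A minus the pooled controls, and none passed 0.05 (edgeR quasi-likelihood test, Benjamini-Hochberg adjustment over 10251 rows, 0.0% called, smallest adjusted p = 0.0536). DESeq2 called 13 rows at 0.01, 2 higher (Igfbp5 and Srpk2) and 11 lower, and 166 at 0.05. At 0.05 edgeR called 383 rows within cohort 1, 149 there with the replicate number as a block, 81 without the Q5A library of cohort 2, 52 without H3.3 replicate 3 of cohort 1 and 8 without the cohort 3 library. At an unadjusted p under 0.05, 1856 rows differed (18.1% of those tested), of which 1035 were higher in Q5A (10.1%) and 821 lower (8.01%), and such rows are called nominally higher or lower from here on. The differences were small, with a median absolute log2 difference of 0.23 and a range of -0.41 to 0.59 between the 5th and the 95th percentile. Only 37 rows (0.361%) differed by more than 1 on the log2 scale, 27 of them higher and 10 lower. Without the cohort 3 library, 1323 rows were nominally higher and 1194 lower, and 1 row, RP23-441D9.4, passed 0.01. Single libraries moved the nominal count both ways. It was 863 without Q5A replicate 4 of cohort 1 and 1160 without Q5A replicate 2, but 2480 without H3.3 replicate 3 of cohort 1 and 2620 without the Q5A library of cohort 2.

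The direction of the differences went with the position of a gene relative to other genes. Rows of genes with no exon of another gene on the opposite strand numbered 4353, and 737 of them were nominally higher (16.9%) and 64 lower (1.47%), with a median log2 difference of 0.21. By contrast, among 3628 rows whose gene has an exon opposite another gene, 246 were nominally higher (6.78%) and 421 lower (11.6%), with a median of -0.06. The 2270 rows whose name was not found in the annotation, mostly named after genomic clones, gave 52 nominally higher (2.29%) and 336 lower (14.8%), with a median of -0.16. These classes were set by the annotation and not by the counts. The split held without the cohort 3 library, with 948 higher and 98 lower rows in the first class, 302 and 563 in the second and 73 and 533 in the third. It also held with median-of-ratios size factors, with 620 and 79, 199 and 516, and 39 and 403, although that scaling turned the balance over all rows to 858 higher and 998 lower.

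**Figure D1:**
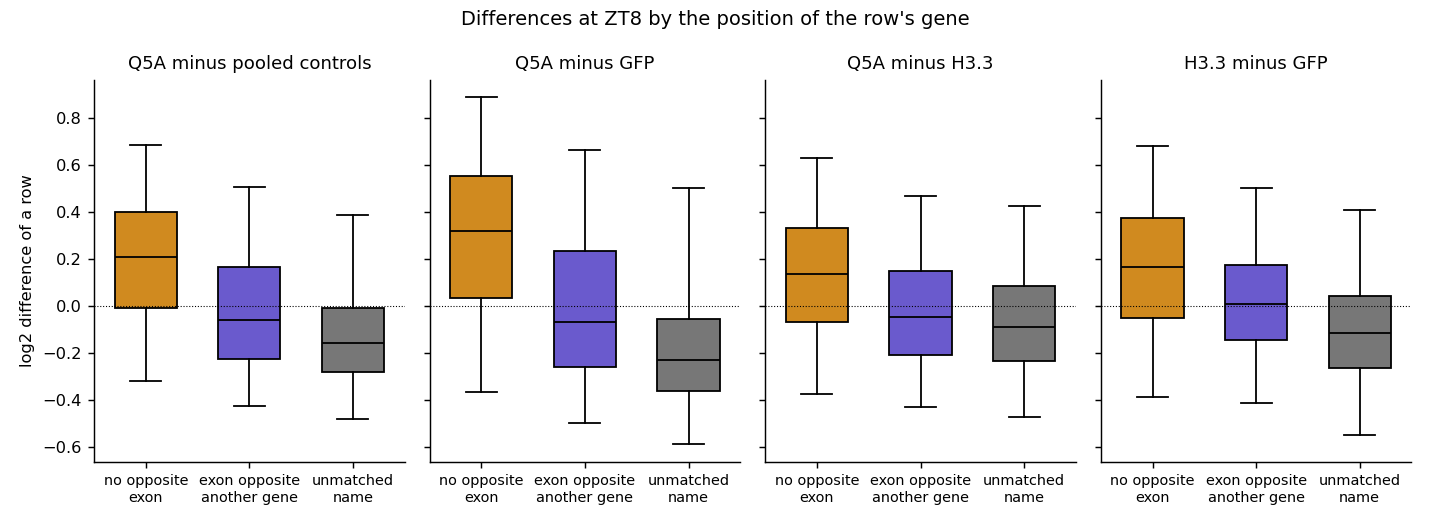
Log2 differences at ZT8 (vertical axis) of the rows in each of 3 annotation classes (horizontal axis), in 4 panels for Q5A minus the pooled controls, Q5A minus GFP, Q5A minus H3.3 and H3.3 minus GFP. Boxes span the quartiles with a line at the median and whiskers run from the 5th to the 95th percentile of rows. In each panel the median is highest for rows with no opposite exon (0.21, 0.32, 0.14 and 0.17) and lowest for unmatched names (-0.16, -0.23, -0.09 and -0.12).

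Within these classes the difference varied with the length and the level of a row. Among rows with no opposite exon, the median log2 difference was 0.10 in the shortest of 4 equal groups by exonic length (up to 3159 bases), then 0.17 and 0.24, and 0.31 in the longest (from 7669 bases), in which 273 rows were nominally higher and 10 lower. In the class with an opposite exon, the 4 length groups gave -0.15, -0.10, -0.04 and 0.11. The values in that class also varied with the level of the row, with medians of 0.07 and 0.04 in its lower groups by level and of -0.07 and -0.17 in its upper ones, and 258 rows of the group with the most reads were nominally lower. Noncoding classes differed among themselves. Of 131 antisense rows 1 was nominally higher and 24 lower (median -0.20), of 141 lincRNA rows 4 and 17 (-0.14), and of 54 miRNA gene rows none and 11 (-0.18), whereas 27 processed pseudogene rows gave 3 higher and none lower (0.21). The 7537 protein-coding rows gave 971 higher and 426 lower (0.11).

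The same contrast was seen within pairs of genes that face each other. In 891 pairs with both rows tested, the row with more reads had a median log2 difference of -0.17, with 22 nominally higher and 192 lower, and its partner one of -0.01, with 67 and 55. In the 256 pairs in which the levels differed by 10 times or more, the larger row gave -0.18 (5 higher and 80 lower) and the smaller row 0.14 (33 higher and 3 lower). For instance, Rapgef4os2, a noncoding gene opposite the cAMP-activated exchange factor Rapgef4, was at -0.51 while Rapgef4 was at 0.17. Gm20721, opposite the G-protein subunit gene Gnas, was at -0.21 while Gnas was at 0.09. Both members of the facing pair Srpk2 and Kmt2e were positive, with 0.70 and 0.22.

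A share of reads that moved with this split was measured per library. Rows with no opposite exon held 10.98% of the gene reads in the lowest Q5A library, 14.0% at the median and 17.2% in the highest. In controls the lowest, median and highest shares were 9.26%, 10.97% and 15.9%. The Q5A and control libraries overlapped, with 4 Q5A libraries of cohort 1 at 13.5% or more and the highest controls being the H3.3 libraries at 15.9% (cohort 1, replicate 3) and 13.4% (cohort 3). The difference in means was 2.39 percentage points (exact permutation test, 2-sided, p = 0.0330, adjusted over 7 library measures 0.0827), and it was 3.16 points against GFP (exact p = 0.0152, adjusted 0.0354) and 1.72 against H3.3 (exact p = 0.192, adjusted 0.377). Within cohort 1 it was 2.89 points (exact p = 0.0310, adjusted 0.0647). The number of rows with at least 1 read was also higher in Q5A, at 18796, 20058 and 20324 for the lowest, median and highest library against 17851, 18843 and 20531 (exact p = 0.00582, adjusted 0.0408). Against GFP alone the adjusted p was 0.0354 and against H3.3 alone 0.179 (exact permutation tests). The number of rows with reads can move with depth, and within cohort 1 the Q5A libraries held 203120 more gene counts on average than the controls (exact p = 0.0370, adjusted 0.0647), with every Q5A library above every H3.3 library (exact p = 0.0159, adjusted 0.0556). In an added fit with the log2 ratio of the reads in these rows to all other gene reads as a covariate, 547 rows (5.34%) were nominal, 253 higher and 294 lower, and the 3 class medians were 0.00, -0.02 and 0.01. The covariate is built from the same counts as the classes, so medians near 0 follow from its construction, and a smaller value in this fit does not show that a difference is absent. What sets this share in a library was not tested.

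**Figure D2:**
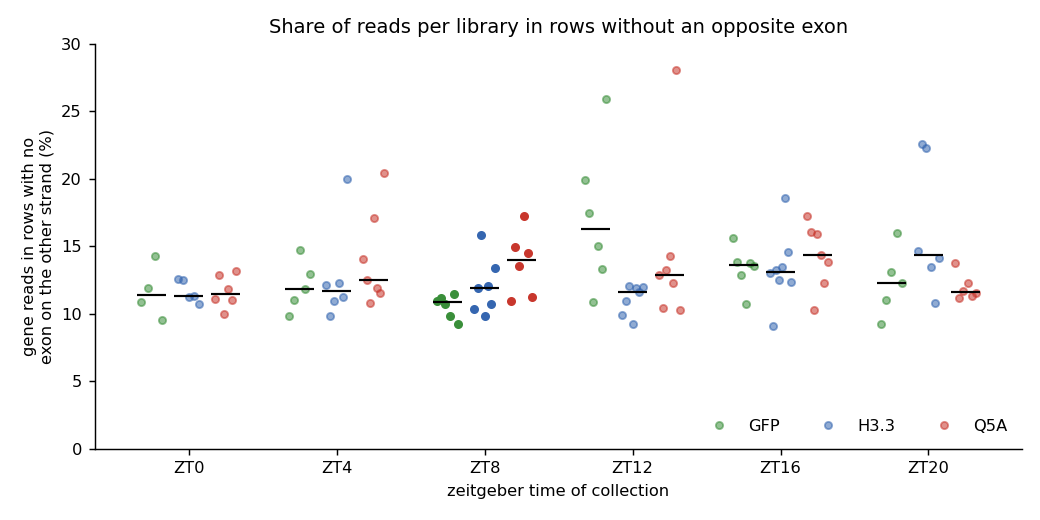
Share of each library's gene reads in rows with no exon on the other strand (vertical axis, percent) at each ZT (horizontal axis), with 1 point per library, coloured by virus, and a line at the median of each group. ZT8 is drawn in full colour. There the medians are 10.9% in GFP, 11.9% in H3.3 and 14.0% in Q5A, and the Q5A libraries (10.98% to 17.2%) overlap the controls (9.26% to 15.9%).

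A single row, Bc1, passed an adjusted p of 0.01 against GFP. It is a short noncoding RNA made by RNA polymerase III in neurons and carried into dendrites, where it represses translation. Its gene lies on chromosome 7 (144914470 to 144914637, plus strand, build GRCm38) with no exon opposite it. The transcript is printed here from the GENCODE M21 transcripts because its middle is rich in A, with capitals marking the 50-base window that holds the most A (43 of 50, positions 77 to 126 of 168 from the 5′ end).
Bc1: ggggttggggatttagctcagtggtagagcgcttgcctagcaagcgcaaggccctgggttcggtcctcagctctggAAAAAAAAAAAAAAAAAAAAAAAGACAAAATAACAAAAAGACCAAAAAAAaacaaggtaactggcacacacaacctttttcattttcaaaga
Bc1 is related to the ID repeats of rodent genomes, so reads of near copies may be counted in its row or left out of it.

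Bc1 was at 298 CPM in the lowest Q5A library, 654 at the median and 1001 in the highest. It was at 61.9, 79.7 and 269 CPM in GFP, and at 145, 312 and 687 CPM in H3.3. All Q5A libraries were above every GFP library, whereas H3.3 lay between them and overlapped both. Against GFP, the log2 difference was 2.54 ± 0.36 (SE), and this was the only row that passed an adjusted p of 0.01 in any of the ZT8 comparisons as defined (edgeR, adjusted p = 0.00120, range over 29 alternatives 3.2e-42 to 0.0555). Against H3.3 it was 0.92 ± 0.32 (edgeR, adjusted p = 0.512) and against the pooled controls 1.46 ± 0.37 (edgeR, adjusted p = 0.183). H3.3 itself was 1.63 ± 0.34 above GFP (edgeR, adjusted p = 0.492). The high control libraries were those outside cohort 1. The GFP library of cohort 2 was at 269 CPM, with the other 5 at 61.9 to 90.9, and the H3.3 library of cohort 3 was at 687, with the next at 338. Within cohort 1, the differences were 2.11 ± 0.30 against the pooled controls (edgeR, adjusted p = 0.00122), 3.18 against GFP (adjusted p = 1.3e-11), 1.36 ± 0.20 against H3.3 (adjusted p = 0.00208) and 1.82 ± 0.21 for H3.3 minus GFP (adjusted p = 1.6e-05). Over the alternatives these adjusted p ranged from 0.00122 to 0.865, 3.2e-42 to 0.0555, 1.8e-05 to 1 and 4.1e-18 to 0.691 in the same order. In cohort 1 Bc1 thus rose from GFP to H3.3 and from H3.3 to Q5A, in comparisons that share the H3.3 libraries. With the class-share covariate the pooled difference was 0.81.

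The rows of 3 hypothalamic peptide precursors, Pmch, Cartpt and Gal, stood among the larger differences. Of 10 rows tested from a list of 23 hypothalamic neuropeptides, 3 were nominally higher and none lower, with a median of 0.59 beside 0.02 over all rows. Over all rows 10.1% were nominally higher. The 7 members with no opposite exon gave 2 nominally higher and a median of 0.62, beside 16.9% and 0.21 for that class. Without the cohort 3 library the list again gave 3 higher and none lower, with a median of 0.51. The list's own median varied between control libraries by an SD of 0.80, which is larger than 0.59, and its median was 0.41 for H3.3 minus GFP and 0.17 with the class-share covariate. Pmch, which encodes the precursor of melanin-concentrating hormone, was at 34.8 CPM in the lowest Q5A library, 111 at the median and 291 in the highest, against 2.06, 33.6 and 71.9 in controls. All Q5A libraries were above the control median, and the lowest of them, that of cohort 2, was within the control range. The log2 difference was 1.92 ± 0.44 (SE) (edgeR, adjusted p = 0.173), with 1.80 ± 0.55 against GFP and 2.03 ± 0.53 against H3.3. It was 1.79 without the cohort 3 library (edgeR, adjusted p = 0.0428) and 2.02 within cohort 1 (adjusted p = 0.0124), in a range of 0.000526 to 0.865 over 30 alternatives.

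Pmch (chromosome 10, 88091072 to 88092375, plus strand) lies opposite Parpbp, a gene named for binding PARP1, and the Parpbp row held 18239 to 47706 reads in Q5A and 48 to 65028 in controls. The Parpbp row was at 0.44 ± 0.76. As a share of the Parpbp row, Pmch was 0.323%, 0.580% and 1.02% at the lowest, median and highest Q5A library, against 0.157%, 0.252% and 12.5% in controls. In 3 controls the Parpbp row was nearly empty, at 254 reads in GFP replicate 5 of cohort 1 and 48 reads in each of H3.3 replicate 3 of cohort 1 and the cohort 3 library, and the Pmch row was at its lowest in the same 3. The part of the Parpbp level in the difference of the Pmch row was not tested. Nor was it tested which gene's RNA either row held. In bulk tissue, fewer cells of a type and less RNA per cell cannot be told apart.

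Cartpt, the precursor of CART peptides, has no opposite exon and was at 9.43, 21.9 and 32.8 CPM in Q5A against 0.686, 9.42 and 17.7 in controls. Its log2 difference was 1.15 ± 0.35 (edgeR, adjusted p = 0.188), with 4 Q5A libraries above the highest control. The lowest Q5A library was again that of cohort 2. Gal, the galanin precursor, was at 2.23, 9.02 and 16.7 CPM against 0, 2.69 and 15.2, with 1.07 ± 0.48 (edgeR, adjusted p = 0.246). With the covariate the values were 1.81 for Pmch, 0.97 for Cartpt and 0.24 for Gal.

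The 12 rows with the smallest p on the higher side included Pmch, and none of them passed the adjustment in edgeR. Igfbp5, which binds insulin-like growth factors, was at 36.1, 42.8 and 55.4 CPM in Q5A against 17.9, 26.0 and 36.7 in controls. The groups met only at their edges, with the lowest Q5A library just under the highest control, and the difference was 0.73 ± 0.15 (edgeR, adjusted p = 0.0904), with 0.76 against GFP and 0.71 against H3.3. DESeq2 called it (adjusted p = 0.00333, range over 30 alternatives 0.00333 to 0.865). Snx30, a sorting nexin of endosomes, was at 10.02, 13.1 and 18.3 CPM against 1.67, 6.09 and 8.45. Its groups did not overlap, and the difference was 1.15 ± 0.23 (adjusted p = 0.0904), in rows of 2 to 34 reads. Srpk2, a kinase of splicing factors that lies opposite the MLL-family gene Kmt2e, was at 113, 182 and 220 CPM against 82.3, 96.1 and 175. Here 5 Q5A libraries were above every control and the cohort 2 library was not, with 0.70 ± 0.15 (edgeR, adjusted p = 0.0904), and DESeq2 called this row too (adjusted p = 0.00735, range over 30 alternatives 0.00735 to 0.865).

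The other leading rows on that side were Dnm3, a dynamin of membrane fission (0.90 ± 0.21, opposite Gm10176), Slc4a10, a bicarbonate transporter (1.01 ± 0.24), Edil3, an extracellular matrix protein (0.82 ± 0.20), and Chn1, a regulator of Rac signalling (0.68 ± 0.16, opposite Chn1os1). Vat1l (0.63 ± 0.15), Txlna (0.76 ± 0.18), Mon2 (0.90 ± 0.22), which acts in endosome traffic, and the zinc finger gene Zfp292 (1.49 ± 0.36) completed the set. In each of these rows all 6 Q5A libraries were above the control median. With the class-share covariate these 8 rows were at 0.37 for Vat1l to 1.04 for Zfp292. In all, 3 rows (0.0293% of those tested) were higher in Q5A without overlap, Snx30, Tpd52l1 (1.21 ± 0.32) and Bean1 (0.63 ± 0.19, opposite Gm45892).

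On the lower side, 7 of the 12 rows with the smallest p had clone-based names with no position in the annotation and the other 5 had an opposite exon. RP23-441D9.4 was at 23.8, 28.5 and 37.1 CPM in Q5A against 37.8, 49.2 and 56.6 in controls, without overlap. The difference was -0.73 ± 0.13 (edgeR, adjusted p = 0.0536). It passed 0.01 without the cohort 3 library, at -0.76 (edgeR, adjusted p = 0.00821), and within cohort 1, at -0.84 (adjusted p = 0.00672), in a range of 2.9e-05 to 0.459 over 30 alternatives. AC133523.6 was at 42.9, 47.5 and 52.7 CPM against 58.3, 77.4 and 89.9, again without overlap, with -0.62 ± 0.13 (edgeR, adjusted p = 0.0904). AC151602.15 differed by -0.84 ± 0.18 (adjusted p = 0.0904), and RP24-74F2.12 and RP24-297C1.9 by -0.50 ± 0.12 and -0.40 ± 0.11.

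The annotated rows on this side carried the name of 1 gene of a facing pair. Galntl6, of the family that starts O-linked glycans, lies opposite BC030500 on chromosome 8 (57774052 to 58912640, minus strand) and was at 63.2, 71.3 and 80.3 CPM in Q5A against 85.3, 99.7 and 154 in controls. These did not overlap, and the difference was -0.63 ± 0.14 (edgeR, adjusted p = 0.140). Rapgef4os2 was at 387, 516 and 658 CPM against 586, 681 and 997, with -0.51 ± 0.13 (adjusted p = 0.183). Tbl3, a factor of ribosome assembly opposite Noxo1, was at -0.57 ± 0.13, Cyp2t4, a cytochrome P450 opposite the oxygen sensor Egln2, at -0.53 ± 0.13, and B430218F22Rik, opposite the mitochondrial ribosomal gene Mrps30, at -0.41 ± 0.11. Altogether 5 rows (0.0488%) were lower without overlap, RP23-441D9.4, AC133523.6, Galntl6, RP23-104G16.3 and RP24-308C1.1.

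**Figure D3:**
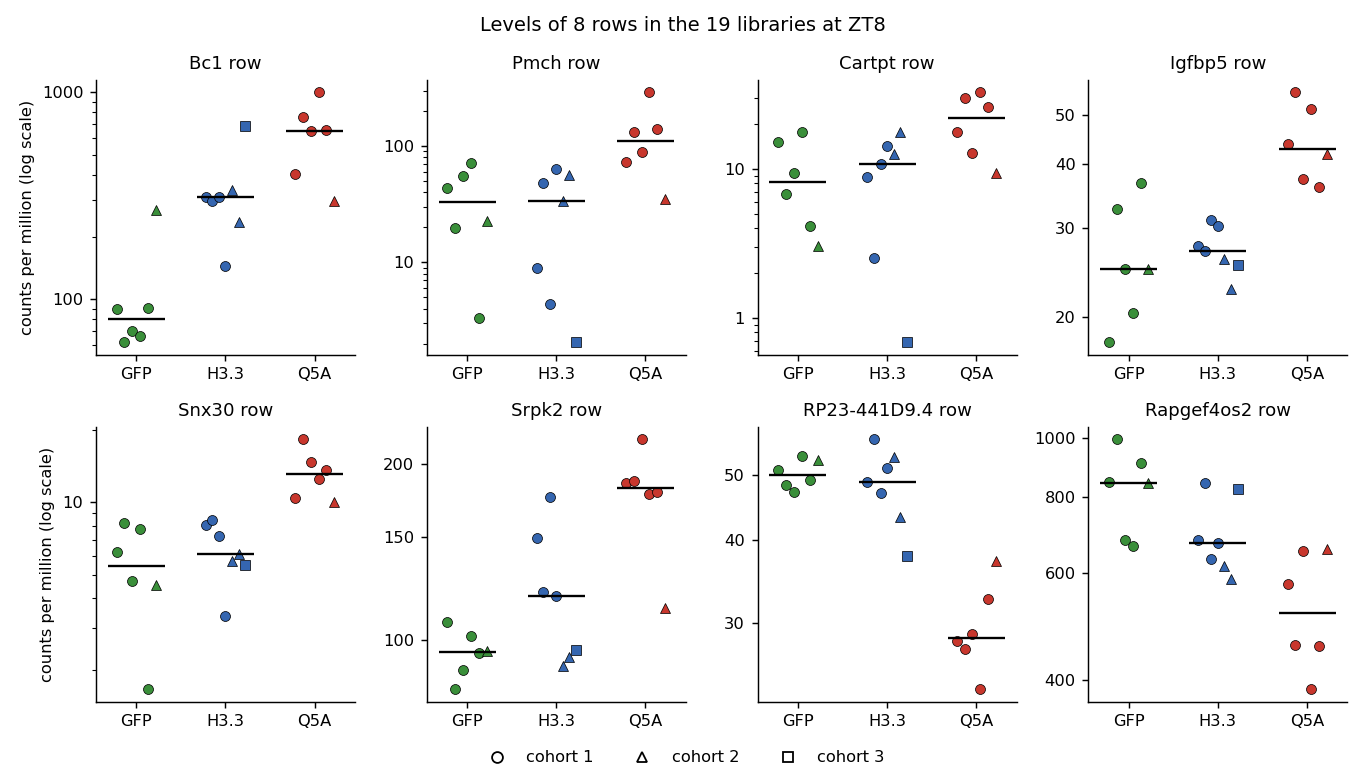
CPM (vertical axes, log scale) of 8 rows in the 19 ZT8 libraries by virus (horizontal axes), with 1 point per library, the shape giving the cohort, and a line at the median. For Snx30 and RP23-441D9.4 the Q5A points are separate from all control points (10.02 to 18.3 against 1.67 to 8.45 CPM, and 23.8 to 37.1 against 37.8 to 56.6 CPM), and for Bc1, Pmch, Cartpt, Snx30 and Srpk2 the cohort 2 Q5A library is the lowest of its group.

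Each control virus was then taken apart, in 1 fit over the 3 groups, so that the comparisons share libraries and are set side by side. Q5A minus GFP gave 1 row past 0.01 (0.00976% of 10251), Bc1, and 5 past 0.05 (0.0488%), with 2284 nominal rows (22.3%), 1413 nominally higher (13.8%) and 871 lower (8.5%). The 4 further rows at 0.05 were Srpk2 (0.90 ± 0.17, edgeR, adjusted p = 0.0454), Disp2, a membrane protein of the Dispatched family (0.99 ± 0.19, adjusted p = 0.0470), RP23-441D9.4 (-0.76 ± 0.15, adjusted p = 0.0470) and AC151602.15 (-1.03 ± 0.18, adjusted p = 0.0345). The count at 0.05 for this comparison depended strongly on the design. It was 1013 in a fit of Q5A and GFP alone, 1193 with cohort as a covariate, 788 with the replicate block, 1008 within cohort 1, 423 without the Q5A library of cohort 2 and 315 without the cohort 3 library. DESeq2 called 94 rows at 0.05, with 1349 nominally higher and 1397 lower, so the balance of directions turned there. Rows that DESeq2 called at 0.01 against GFP included Abr, Prrc2a, Dnaaf2 and Tmc3, whose edgeR log2 differences were 0.74 (opposite Gm26780), 0.60, -0.52 (opposite 9330151L19Rik) and -0.49 (opposite Gm16638). Q5A minus H3.3 gave 0 rows at 0.01 and at 0.05 (0.0%, smallest adjusted p = 0.479; DESeq2 also 0 at 0.01), with 969 nominal rows (9.45%), 474 higher (4.62%) and 495 lower (4.83%). H3.3 minus GFP, the difference between the controls, gave 0 rows as well (0.0%, smallest adjusted p = 0.492; DESeq2 also 0), with 850 nominal rows (8.29%), 537 higher (5.24%) and 313 lower (3.05%). Rows that differed by more than 1 on the log2 scale numbered 186 (166 higher, 20 lower), 57 (35 and 22) and 80 (51 and 29) in the same order. Without the cohort 3 library the nominal counts were 2929 against GFP, 1192 against H3.3 and 779 for H3.3 minus GFP. The nominal counts again moved with other single libraries. Without Q5A replicate 4 of cohort 1 they were 1378 against GFP and 485 against H3.3, and for the H3.3 comparison they were 625 without Q5A replicate 2 of cohort 1, 1593 without the cohort 2 Q5A library and 1695 without H3.3 replicate 3 of cohort 1.

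The class split was present in each of these comparisons. Rows with no opposite exon were nominally higher and lower in 1006 (23.1%) and 75 (1.72%) cases against GFP, in 324 (7.44%) and 47 (1.08%) against H3.3, and in 370 (8.5%) and 52 (1.19%) for H3.3 minus GFP. Rows with an opposite exon gave 328 (9.04%) and 385 (10.6%), 115 (3.17%) and 269 (7.41%), and 126 (3.47%) and 92 (2.54%). Unmatched names gave 79 (3.48%) and 411 (18.1%), 35 (1.54%) and 179 (7.89%), and 41 (1.81%) and 169 (7.44%). H3.3, which carries no substitution, thus showed the same order of class medians relative to GFP (0.17, 0.01 and -0.12) as Q5A did relative to H3.3 (0.14, -0.05 and -0.09), and these 2 comparisons have the H3.3 libraries in common. On the higher side against H3.3, the smallest p belonged to Igfbp5, Fat1, a large cadherin opposite Gm2366 (1.09), and Dnajc24, a chaperone partner opposite Dcdc5 (1.13). For H3.3 minus GFP, the rows with the smallest p on the lower side were RP23-372N19.4 (-3.57), RP23-372N19.1 (-2.87) and RP23-169J19.6 (-2.37), whose Q5A minus H3.3 values were 2.52, 2.06 and 1.64.

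Gene lists of the tissue and of the pathway were described next, with 427 of 663 listed rows tested in 29 lists and with no row of any list past an adjusted p of 0.01. Counts against the pooled controls are to be read against 10.1% of all rows nominally higher and 8.01% lower, and against 16.9% and 1.47% for rows with no opposite exon. Against GFP 13.8% of all rows and 23.1% of rows with no opposite exon were nominally higher. Those shares were 4.62% and 7.44% against H3.3, and 5.24% and 8.5% for H3.3 minus GFP. Nominally higher rows numbered 1323 of 10137 without the cohort 3 library and 253 of 10251 with the class-share covariate. Genes of GABA and glutamate synthesis and transport gave 7 nominally higher and none lower of 11 tested (median 0.50). They included the GABA-forming enzymes Gad1 (0.52 ± 0.23) and Gad2 (0.59 ± 0.28), the vesicular glutamate transporter Slc17a6 (0.52 ± 0.23), the GABA transporter Slc6a11 (0.50 ± 0.20), and the astrocytic glutamate transporters Slc1a2 (0.51 ± 0.13, opposite Gm13872) and Slc1a3 (0.65 ± 0.24). Slc1a2 and Slc1a3 are also members of the astrocyte list below, so these rows are counted in both lists. Against GFP 7 rows were nominally higher (median 0.61) and against H3.3 2 (0.38), with 2 for H3.3 minus GFP (0.28), in comparisons that share libraries. The count was again 7 and none lower when the cohort 3 library was left out. With the class-share covariate, which cannot show that a difference is absent, 1 row was nominally higher and none lower (median 0.02). The list's median varied between control libraries by an SD of 0.25.

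Receptors and channels showed the same direction. Of 32 receptor rows for GABA and glutamate, 11 were nominally higher and 1 lower (median 0.29). The AMPA receptor subunits Gria1, Gria2 and Gria4 were at 0.44 ± 0.19, 0.72 ± 0.32 and 0.79 ± 0.24, and the GABA-B subunits Gabbr1 and Gabbr2 at 0.29 ± 0.13 and 0.43 ± 0.15. The lower row was Grin3b (-0.37 ± 0.15), which lies opposite Tmem259. Of 24 sodium and calcium channel rows, 8 were nominally higher and none lower (0.31), among them the sodium channel subunits Scn2b (0.59 ± 0.17) and Scn3a (0.80 ± 0.35) and the calcium channels Cacna1b (0.49 ± 0.19) and Cacna1g (0.43 ± 0.18). Of 29 potassium channel rows, 5 were nominally higher and none lower (0.20), led by Kcnd2 (0.64 ± 0.22) and Kcnma1 (0.54 ± 0.18, opposite 4930519K11Rik). The 15 potassium channel rows with no opposite exon had a median of 0.22, so their median did not stand out from the 0.21 of that class. The 14 with an opposite exon gave 1 nominally higher and a median of 0.02. Of 31 rows of the vesicle release machinery, 8 were nominally higher and 1 lower (0.32), including the fusion factor Nsf (0.49 ± 0.18), while Unc13a, opposite Colgalt1, was the lower one (-0.34 ± 0.10). Set apart by control, the receptors gave 12 nominally higher against GFP and 3 against H3.3, the sodium and calcium channels 8 and 4, the potassium channels 5 and 2, and the release machinery 12 (median 0.42) and 1 (0.20), with 7 for H3.3 minus GFP. Without the cohort 3 library the nominally higher rows were 11, 8, 6 and 12 in the same order, with 1 receptor row and 1 release row lower. With the class-share covariate, the receptors gave none higher and none lower (median 0.09) and the sodium and calcium channels none and 1 (0.06). In that fit the potassium channels gave 1 and 2 (0.05) and the release machinery 1 and 3 (-0.05).

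Genes tied to the substituted residue and its neighbour lysine 4 were then read. Of 14 rows of H3K4 methyltransferase complexes, 4 were nominally higher and none lower (median 0.27), namely Kmt2a (0.38 ± 0.18, opposite AC061963.1), Kmt2c (0.76 ± 0.28, opposite Gm42585), Ash2l (0.39 ± 0.19) and Hcfc1 (0.47 ± 0.20). Among 5 H3K4 demethylase rows, Kdm5b (0.78 ± 0.30) and Kdm1b (0.36 ± 0.18, opposite Dek) were nominally higher. Of 8 rows for H3.3, its chaperones and transglutaminase 2, Atrx (0.70 ± 0.32) and Dek (0.59 ± 0.25) were nominally higher and none lower. When the cohort 3 library was left out, 3 methyltransferase rows, 1 demethylase row and 2 rows of the H3.3 list were nominally higher and none lower. Neurotrophin genes gave 4 nominally higher of 14 and none lower (0.30), the receptor Ntrk2 (0.51 ± 0.15), its partner Kidins220 (0.59 ± 0.19, opposite Gm36236) and the adaptors Crk (0.64 ± 0.25) and Crkl (0.80 ± 0.24). With the class-share covariate, 1 row of the H3.3 list and 1 neurotrophin row were nominally higher. No methyltransferase or demethylase row was nominal in that fit, and none of these lists had a lower row.

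Clock genes were measured in 13 rows, with 1 nominally higher and 1 lower (median 0.27). Nr1d1, a repressor of the clock loop that lies opposite the thyroid hormone receptor gene Thra, was at 1588, 1790 and 2279 CPM in Q5A against 1822, 2201 and 2634 in controls. The groups overlapped, and the difference was -0.29 ± 0.10 (edgeR, adjusted p = 0.199). Its paralogue Nr1d2, with no opposite exon, was at 6.68, 10.9 and 18.5 CPM against 1.37, 7.12 and 15.2, with 0.70 ± 0.28 (adjusted p = 0.226). Clock itself, the transcription factor that drives the loop, was at -0.07 ± 0.17. For the histamine list, 3 of 10 rows were tested and none was nominal, namely the vesicular monoamine transporter Slc18a2 (0.36 ± 0.19, opposite Gm29261), Aldh7a1 (0.28 ± 0.15, opposite Phax) and the autoreceptor Hrh3 (0.21 ± 0.24, opposite Gm17180). Among 8 immediate early genes 1 row was nominally higher and 1 lower (-0.07), the lower being Junb (-0.24 ± 0.11, opposite Prdx2). Glucocorticoid-responsive genes gave none higher and 1 lower of 8, and interferon and MHC genes none of 7. Without the cohort 3 library 1 histamine row and 1 interferon or MHC row were nominally higher. The clock (1 and 1), immediate early (1 and 1) and glucocorticoid (0 and 1) counts of higher and lower rows stayed as they were.

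Of 57 nuclear oxidative phosphorylation rows, 7 were nominally higher and none lower against the pooled controls (median 0.19), 16 and 1 against GFP (0.43), 0 and 0 against H3.3 (0.02), and 10 and 0 for H3.3 minus GFP (0.43). Proteasome subunits gave 4 and 0 of 22 (0.37), with 9 and 0 against GFP and 0 and 0 against H3.3, and Psma6 led with 1.11 ± 0.36. Of 40 cytosolic ribosomal protein rows, 4 were nominally higher and 3 lower (0.17), and all 3 lower rows, Rpl15, Rpl28 and Rps25, had an opposite exon. Splicing factors gave 3 and 1 of 26 (0.10) and heat shock and cold-inducible genes 3 and 0 of 11 (0.29), with Hspa5 at 0.37 ± 0.18 and Cirbp at 0.55 ± 0.25. Without the cohort 3 library the nominally higher and lower rows were 21 and 0 of 53 for oxidative phosphorylation, 9 and 0 of 21 for the proteasome, 9 and 3 of 39 for ribosomal proteins and 6 and 0 of 11 for heat shock and cold-inducible genes. The counts of nominally higher rows in these lists thus rose when that library was left out, and so did the count over all rows, from 1035 of 10251 to 1323 of 10137. None of 15 mitochondrially encoded genes passed the filter.

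Markers of the cell types that a dissection could hold were read from the same fit. Astrocyte markers gave 5 nominally higher and none lower of 14 (median 0.32), and their summed level was 507, 724 and 893 CPM at the lowest, median and highest Q5A library against 362, 483 and 638 in the 12 controls other than that of cohort 3, which was at 1073. Neuron markers gave 1 and 0 of 14 (0.25), the one being Map2 (0.59 ± 0.21, opposite Gm10558), with sums of 4299, 5109 and 6086 CPM against 4019, 5282 and 6771. Against GFP the neuron list gave 6 nominally higher (0.44) and against H3.3 none higher and 1 lower (0.09). Oligodendrocyte markers gave 1 and 1 of 14 (-0.17), with sums of 1243, 1526 and 1912 against 1093, 1473 and 2187. Microglia gave 0 and 1 of 5 and endothelium, pericytes and ependyma 0 and 1 of 4, both lower rows having an opposite exon. Without the cohort 3 library the counts were 9 and 0 of 14 for astrocytes, 6 and 0 of 14 for neurons and 1 and 1 of 14 for oligodendrocytes, whose median turned from -0.17 to 0.07. None of 6 striatal, 3 pituitary or 1 choroid plexus rows was nominal with all libraries. Without that of cohort 3, 1 pituitary row was nominally higher, and endothelium, pericytes and ependyma gave 1 higher and 1 lower of 4. The sums of neurons and oligodendrocytes therefore overlapped almost fully, while those of astrocytes were higher at the median, and the part of the astrocyte markers in the other lists was not tested.

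**Figure D4:**
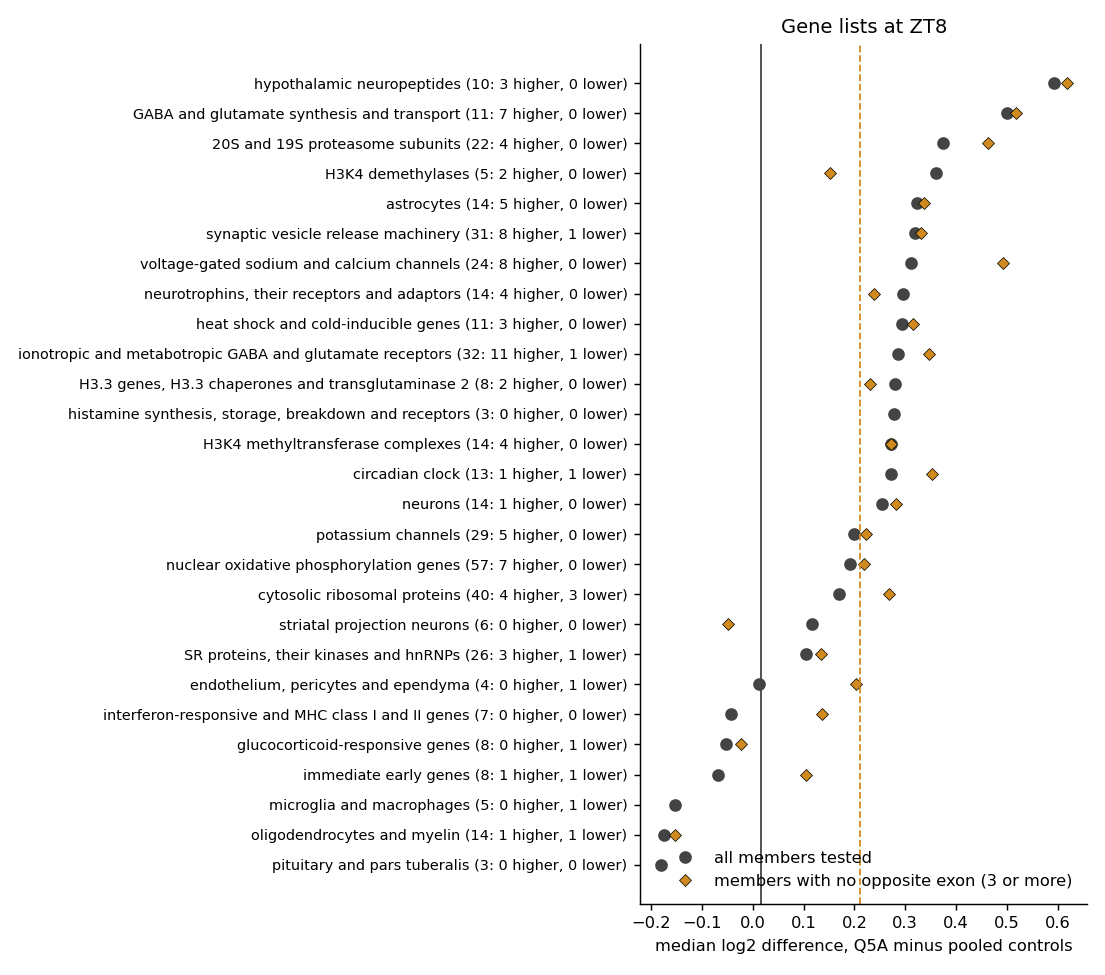
Median log2 difference, Q5A minus pooled controls (horizontal axis), of the members tested in 27 gene lists (vertical axis, with the number tested and the nominally higher and lower members). Circles stand for all members and diamonds for those with no opposite exon, the solid line marks the median of all rows (0.02) and the dashed line that of rows with no opposite exon (0.21). Neuropeptides (0.59) and GABA and glutamate genes (0.50) are at the upper end and most neuronal lists are near the dashed line.

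The cohorts were also read apart. Within cohort 1, 3 rows passed 0.01 for Q5A minus the pooled controls, Bc1, RP23-441D9.4 and Leng9 (-0.63, edgeR, adjusted p = 0.00898, range over 30 alternatives 0.00898 to 0.865, opposite Leng8), and 55 did so against GFP, 28 higher and 27 lower. Among these 55 were Fbxl22 (1.12, opposite Herc1), Ubxn8 (0.92), Sycp3 (1.04, opposite Chpt1), AC118698.3 (1.29) and Myh6 (-1.12, opposite Gm49130), as log2 differences within cohort 1. Of 1449 rows nominally higher within cohort 1 among the 9986 tested both there and in all cohorts, 57.3% were also higher in the single Q5A library of cohort 2 relative to its controls, where 51.8% of all these rows were. Of 1381 rows lower within cohort 1, 54.3% were lower, against 48.2% of all rows. A single Q5A library allows no test of these shares.

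Finally, ZT8 was set against the other times of day. A test of whether the Q5A difference at ZT8 departed from its mean over the other 5 ZT called 0 of 13254 rows at 0.01 (0.0%, edgeR, smallest adjusted p = 0.772; DESeq2 also 0), with 751 at an unadjusted p under 0.05 (5.67%), 508 higher (3.83%) and 243 lower (1.83%). By class these were 382 (6.12%) and 30 (0.48%) of 6244 rows with no opposite exon, 94 (2.24%) and 121 (2.89%) of 4188 with one and 32 (1.13%) and 92 (3.26%) of 2822 unmatched names. The rows with the smallest p were Zfp292 (1.63), Smg6 (0.70, opposite Srr) and Dock3 (0.68, opposite 4930524O07Rik) on the higher side and AC151602.15 (-0.76), RP24-535O17.5 (-1.11) and Fam83c (-0.76, opposite Gm16098) on the lower. That nominal count was 351 without Q5A replicate 4 of cohort 1, 467 without replicate 2, 1144 without H3.3 replicate 3 of cohort 1 and 1258 without the cohort 2 Q5A library. It was 786 without the ZT8 library of cohort 3. The 1035 rows nominally higher at ZT8 had medians of 0.10 at ZT0, 0.26 at ZT4, 0.06 at ZT12, 0.07 at ZT16 and -0.34 at ZT20, where 215 of them were nominally lower and 6 higher. Over all rows the medians were 0.001, 0.02, -0.01, 0.003 and -0.04 in the same order. The share of all rows nominal at ZT20 is not given here, so the ZT20 counts have no background beside them. The 821 rows lower at ZT8 had medians of -0.10, -0.13, -0.06, -0.09 and 0.18, with 105 nominally higher and 2 lower at ZT20. The share of reads in rows with no opposite exon moved alongside, with means of 13.7% in Q5A and 11.3% in controls at ZT8 and of 11.96% and 14.5% at ZT20. The control mean at ZT20 included H3.3 replicates 2 and 3 of cohort 1, at 22.6% and 22.3%. The medians there were 11.6% in Q5A and 13.5% in controls. The ZT20 differences were not fitted without these libraries, and the part of this share in the medians of rows at the other ZT was not tested.

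Igfbp5 differed by 0.73 at ZT8, by 0.14 to 0.32 at ZT0, ZT4, ZT12 and ZT16, and by -0.40 at ZT20. RP23-441D9.4 had a median of 28.8 CPM in Q5A at ZT8 against 51.0 in GFP and 50.3 in H3.3, and of 37.1 against 41.9 and 36.7 at ZT20, where 1 Q5A library was at 189 CPM and the fitted difference was 0.72. For Bc1 the difference between Q5A and the pooled controls was 1.23, 1.25 and 1.46 at the first 3 ZT of the day (ZT0 to ZT8), then 0.43 and 0.19, and -0.33 at ZT20. Its GFP median was lowest at ZT8, at 81.4 CPM in the normalization over all libraries, and highest at ZT12, at 465 CPM, while Q5A medians were 291 to 667 CPM over the day.

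**Figure D5:**
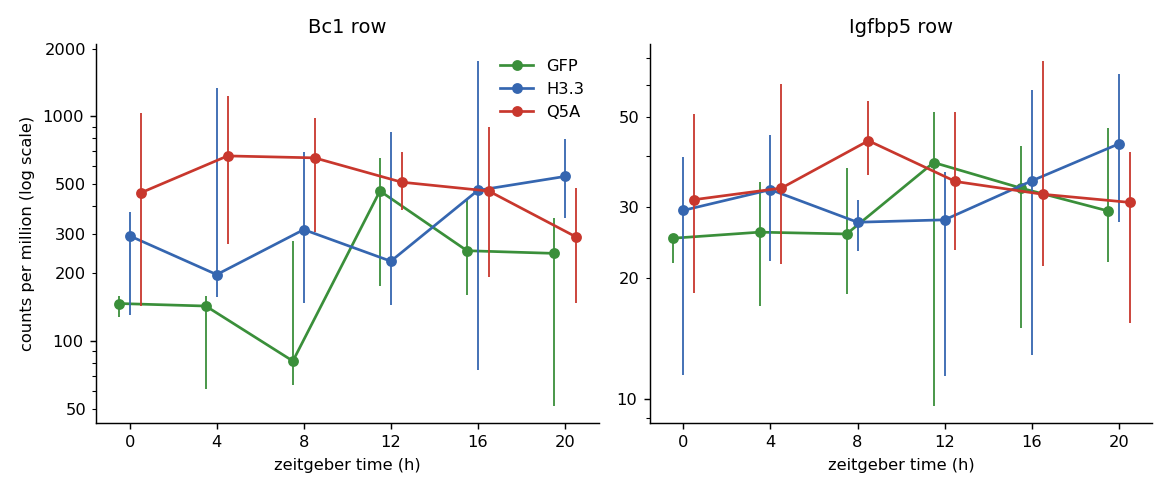
CPM (vertical axes, log scale) of the Bc1 and Igfbp5 rows at each ZT (horizontal axes) for the 3 viruses, with points at the median of the libraries and bars from the lowest to the highest. Each point is a separate set of mice. At ZT8 the Bc1 medians are 81.4 CPM in GFP, 313 in H3.3 and 654 in Q5A, and the Q5A bar of Igfbp5 lies at the upper end of the controls.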

How the data were processed

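RNA-seq libraries of dissected TMN were analysed from gene counts. The authors aligned reads to GRCm38 with STAR 2.7.11b and deposited counts per gene name from HTSeq 2.0.5, counted by strand (setting yes) over exons of Ensembl annotation, from a kit that marks strand. The 5 summary rows that name no gene were left out of library sizes, and gene rows held 3.78% to 4.30% of uniquely placed reads. A further 18 files could not be tied to a sample by the labels and were not used.

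Counts were filtered with edgeR 4.0.16 (filterByExpr, minimum count 10, minimum total 15), scaled by TMM and tested with the quasi-likelihood test, with Benjamini-Hochberg adjustment over all rows and a threshold of 0.01. DESeq2 1.42.0 was an alternative. Differences of library measures were tested by exact permutation. Values printed per library are CPM. Rows were placed in classes by exon overlap on the other strand in the annotation. Rows to be named were drawn from the 12 rows with the smallest p in each direction of the pooled comparison, the first 3 of the other comparisons, any row past 0.01 in the edgeR fit, in DESeq2 or within cohort 1 (at most 10 each), the 5 rows without overlap that have the largest gap, the 3 members of each list with the smallest p, and Hdc, H3f3a, H3f3b, Tgm2 and Wdr5, and not all of them are printed. Further list members, facing partners, rows without overlap and values for Cartpt, Gal, Nr1d1 and Clock were chosen after their values were seen. The members, lists and tests were chosen with earlier results of these data known. The scripts were tested on simulated data. Alternatives were another scaling, other filters, other designs, cohort 1 alone and leaving out each library. A fit with the class share as a covariate was added after seeing the data.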

Additional observations from a re-analysis of the deposited data

Results flagged for a closer look

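In 16 of 159 groups of 6 or 7 libraries tested (10.1%), 1 library lay far from all others of its group. These groups reuse the same 19 libraries and include rows named for a small p, so no chance rate is set beside this share. The causes were not tested.

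In Q5A, the lowest library had 18796 rows with at least 1 read, with the next at 19920. The Leng9 row was at 403 CPM in its highest Q5A library and 223 in the next, and the Myh6 row at 105 and 46.0 CPM. RP23-273G23.2 was at 21.2 CPM in its lowest Q5A library and 98.4 in the next, and RP24-80P9.3 at 585 and 1448 CPM.

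In GFP, the lowest library had 1207237 gene counts, with the next at 1505165. Bc1 was at 269 CPM in its highest GFP library (cohort 2) and 90.9 in the next. The highest GFP library was also apart for Edil3 (10.8 and 7.57 CPM), Vat1l (71.4 and 54.4), RP24-74F2.12 (289 and 274) and another clone-named row among the 12 leading lower rows (481 and 429). The lowest was apart for Tbl3 (48.3 and 69.0 CPM) and Disp2 (41.4 and 59.9).

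In H3.3, the highest library was apart for Bc1 (687 CPM in the cohort 3 library and 338 in the next), Zfp292 (7.24 and 3.81) and RP23-104G16.3 (136 and 106).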

How the results depend on the processing

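Q5A minus the pooled controls gave 0 rows at an adjusted p of 0.01 (edgeR), and 13 with DESeq2, 3 within cohort 1, 2 within cohort 1 with the replicate block, 2 with cohort as a covariate, 3 without a filter and 1 in the fit over 3 groups. Leaving out 1 library gave 0 to 1. Q5A minus GFP gave 1 row, and 12 with DESeq2, 55 within cohort 1, 48 there with the replicate block, 12 with the cohort covariate, 38 without a filter, 9 with the replicate block, 0 with robust estimation, 3 in a fit of these groups alone, 5 at an adjusted p of 0.05, and 1 to 4 on leaving out 1 library. Q5A minus H3.3 gave 0 rows, and 1 within cohort 1, 2 there with the block, 34 without a filter and 0 on leaving out any library. H3.3 minus GFP gave 0 rows, and 1 within cohort 1, 1 there with the block, 38 without a filter and 0 to 1 on leaving out 1 library. The ZT8 contrast with the other times gave 0 rows, 1 without a filter and 0 on leaving out any library. The causes were not tested. For the pooled comparison the nominal count of 1856 was 547 with the class-share covariate, 2849 within cohort 1 and 3335 without a filter, and higher rows were 55.8% of nominal rows, with 858 higher and 998 lower under median-of-ratios scaling and 956 and 1387 with DESeq2. Without a filter the nominal counts were 3646, 2437, 2318 and 1414 for the other comparisons in the same order.

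Same-numbered libraries of different groups correlated by -0.24 to 0.31 in their deviations from group means. Libraries with different numbers were not compared, so these values cannot decide whether the numbers pair the samples. With the replicate block the pooled comparison gave 0 rows, with 1184 nominally higher and 1043 lower.

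Of 1843 alternative values of named rows, 1737 kept their direction and side of the threshold, 105 passed it only under the alternative, and 1 no longer passed it, Bc1 against GFP with robust estimation (adjusted p = 0.0555). None changed sign. Of 195 alternative list medians, 11 moved by more than the spread between control libraries, 10 of them with the class-share covariate. Gene rows held 1203356 to 1902572 counts per library, and rows with few reads, such as Hdc, were not tested. The part of depth and of the strand setting in such low counts was not tested.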
